A study of Mus musculus with 12 samples.

Results

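The major histocompatibility complex (MHC) class II genes *H2-Aa*, *H2-Ab1*, *H2-Eb1*, *H2-DMb1* and *Cd74* and their transactivator gene *Ciita* were followed across RNAseq libraries of sorted airway macrophages (AMs). These 6 genes were selected on their expression difference between *Scnn1b*-Tg and WT AMs in these same libraries, so that their values in that comparison are a description and carry no test. All 6 were among the 16972 rows that passed the expression filter. Of the 19161 rows of the count table, 1999 were paired with a gene, these 6 included, and are called named rows here. A symbol was known for 1977 of them. The other 17162 rows have no name here, and the named rows were themselves taken from a table of small p-values for the same comparison. The smallest log2 fold change among the 6 genes was that of *H2-DMb1*, at 0.58, just above the threshold of 0.5, and *Rfxank*, a subunit of a factor that binds class II promoters, was not called, at 0.36 and an adjusted p-value of 0.404 (edgeR).

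The libraries come from 6 *Scnn1b*-Tg mice and 6 WT littermates, female, 6 weeks old and on the C57BL/6 background. The transgene overexpresses a subunit of the epithelial sodium channel under the club cell secretory protein promoter, which is active in airway epithelium, and the mice develop mucus obstruction. AMs were sorted as CD45+ Siglec-F+ CD11c+ cells. Batches 1, 2 and 3 hold 1 library per genotype, here numbered by batch, and batch 4 holds 3 libraries per genotype, numbered 4 to 6. In batch 4 the *Scnn1b*-Tg and WT libraries carry different flow cell names, so that genotype and flow cell cannot be told apart there. Both a paired-end SMART-Seq v4 and a single-end NEBNext protocol were used, and the labels do not say which library is which. Flow cell names stand only in the labels of batch 4, and the protocol may differ between batches 1 to 3 and batch 4. Total counts ranged from 40259958 to 121813289 in *Scnn1b*-Tg libraries and from 45414386 to 110091439 in WT libraries. By batch, they ranged from 65764040 to 121813289 in batches 1 to 3 and from 40259958 to 51832335 in batch 4.

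MHC class II molecules present peptides from endocytosed proteins to CD4 T cells. An alpha and a beta chain assemble in the endoplasmic reticulum with the invariant chain, encoded by *Cd74*, which blocks the peptide groove and directs the complex to endosomes, where the peptide exchange factor H2-DM removes the last invariant chain fragment. CIITA does not bind DNA itself, and acts as a coactivator on factors bound to the promoters of all these genes. Resident AMs are known for low class II expression compared with dendritic cells.

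Markers were examined first. Of 12 AM markers, 4 had a named row. *Siglecf*, the gene of a sorting marker, was expressed at 239 to 473 CPM (counts relative to library size after TMM scaling) in *Scnn1b*-Tg and 279 to 585 CPM in WT libraries. Within every batch it was lower in each *Scnn1b*-Tg than in each WT library, at 0.858, 0.834, 0.804 and 0.784 times the WT level in batches 1 to 4. *Chil3*, the most abundant of the 4, lay between 21372 and 59322 CPM over the 12 libraries. *Ear1* and *Fabp5* were also detected in each library.

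Dendritic cell genes had a named row for 3 of 9 markers, with 0 called between genotypes, although all 3 estimates were higher in *Scnn1b*-Tg AMs, with a median log2 fold change of 3.33. Named rows were taken from small p-values in this comparison, and markers without a named row may differ the other way. Nothing is therefore read from the direction of the 3 about dendritic cell genes as a set. Their summed level in *Scnn1b*-Tg against WT libraries was 85.9 against 7.59 CPM in batch 1, 7.56 against 1.61 CPM in batch 2 and 2.90 against 1.26 CPM in batch 3. In batch 4 it was 0.800, 3.13 and 5.42 CPM in *Scnn1b*-Tg and 0.399, 0.298 and 0.427 CPM in WT libraries. *Mgl2*, the most abundant, reached 47.4 CPM in *Scnn1b*-Tg library 1, and *Flt3*, the receptor that marks dendritic cell development, had 0 counts in *Scnn1b*-Tg libraries 2 and 4 and in WT libraries 3, 4, 5 and 6. The sum of these 3 genes was thus higher in *Scnn1b*-Tg than in WT libraries within every batch, as were the class II genes, all chosen on this comparison. *Scnn1b*-Tg library 1 was highest for the sum and for the class II genes except *H2-DMb1*. Sorting took cells with Siglec-F, a marker that dendritic cells lack by the definition of the study's cytometry. In the study's checks of selected samples, the sorted cells were not fully pure. *Mgl2* and *Cd209a* are also used as markers of macrophage polarization. The part of these markers in the class II values was not tested. In bulk libraries, fewer cells of a type and less RNA per cell cannot be told apart.

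The only B cell marker with a named row, *Ighm* (1 of 8), ranged from 1.32 to 23.2 CPM in *Scnn1b*-Tg and from 1.10 to 8.35 CPM in WT libraries. Its *Scnn1b*-Tg level was 1.68, 4.17, 0.478 and 2.46 times the WT level in batches 1 to 4 (log2 fold change 0.979). Of 7 monocyte and interstitial macrophage markers, *C1qb* had a named row. Its level was highest in batch 2, at 12.9 CPM in the *Scnn1b*-Tg and 14.2 CPM in the WT library. In batches 1, 3 and 4 it was higher in *Scnn1b*-Tg, without overlap in batch 4. The *Scnn1b*-Tg level of *C1qb* was 2.47, 0.910, 1.81 and 2.51 times the WT level in batches 1 to 4 (log2 fold change 0.975). *Cdh1*, the 1 named gene of 6 epithelial markers, lay between 86.9 and 162 CPM. Its *Scnn1b*-Tg level was 1.30, 1.19, 1.14 and 1.06 times the WT level in batches 1 to 4 (log2 fold change 0.178). None of these 3 lists had a gene called between genotypes, and their part in the class II values was not tested.

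Among the class II chains, *H2-Aa* (ENSMUSG00000036594, mm10 chr17:34282744-34287823) encodes the alpha chain of the I-A molecule. Its level in *Scnn1b*-Tg AMs was lowest at 90.5, had a median of 185 and was highest at 468 CPM (mean 236 ± 162, SD, n = 6). In WT AMs the lowest, median and highest levels were 32.3, 78.4 and 140 CPM (mean 81.7 ± 48.1, SD, n = 6). The 2 genotypes overlapped over all libraries, since batch 4 was low in both, but within every batch each *Scnn1b*-Tg library was higher than each WT library.

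*H2-Ab1* (ENSMUSG00000073421, chr17:34257689-34269419), the beta chain that pairs with it, ranged from 77.5 through a median of 142 to 403 CPM in *Scnn1b*-Tg AMs (mean 193 ± 135, SD, n = 6). Its WT range was 30.5 to 131 CPM with a median of 68.5 (mean 72.6 ± 41.2, SD, n = 6). As for *H2-Aa*, batch 4 was low within each genotype and *Scnn1b*-Tg libraries 1 and 3 were highest. Unlike for *H2-Aa*, *Scnn1b*-Tg library 5 (98.8 CPM) lay above WT library 1 (94.3 CPM). *H2-Eb1* (ENSMUSG00000060586, chr17:34305867-34316674) encodes the beta chain of I-E, a molecule that C57BL/6 mice do not assemble because they lack its alpha chain. It ranged from 55.3 through a median of 75.3 to 300 CPM in *Scnn1b*-Tg AMs (mean 124 ± 97.04, SD, n = 6) and from 17.1 through 34.6 to 60.6 CPM in WT AMs (mean 38.0 ± 18.8, SD, n = 6). *Scnn1b*-Tg library 1 was far above the others, and the genotypes overlapped over all libraries but not within a batch.

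*Cd74* (ENSMUSG00000024610, chr18:60803848-60812652) was the most abundant of the 6 genes. It ranged from 339 through a median of 626 to 2509 CPM in *Scnn1b*-Tg AMs (mean 955 ± 841, SD, n = 6) and from 122 through 255 to 617 CPM in WT AMs (mean 310 ± 197, SD, n = 6). *Scnn1b*-Tg library 1 was highest, and the WT library of batch 2 was above the 3 *Scnn1b*-Tg libraries of batch 4.

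*H2-DMb1* (ENSMUSG00000079547, chr17:34153072-34160230) encodes a beta chain of H2-DM. Its levels were 71.7 at the lowest, 137 at the median and 248 at the highest in *Scnn1b*-Tg AMs (mean 148 ± 75.8, SD, n = 6) and 45.6, 94.1 and 168 CPM in WT AMs (mean 103 ± 58.5, SD, n = 6). Here *Scnn1b*-Tg library 1 was the lowest of the *Scnn1b*-Tg libraries of batches 1 to 3, unlike for the chains and *Cd74*. Of the 1604 stretches of 75 bases in its transcripts, 254 (15.8%) also occur in transcripts of *H2-DMb2*, so that part of its counts is uncertain.

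*Ciita* (ENSMUSG00000022504, chr16:10480059-10528418) was the least abundant, with 288 to 838 counts per library in *Scnn1b*-Tg and 119 to 287 in WT AMs. Its *Scnn1b*-Tg levels were 5.84 at the lowest, 6.41 at the median and 8.50 at the highest (mean 6.75 ± 1.06 CPM, SD, n = 6), and its WT levels 1.74, 3.05 and 3.59 CPM (mean 2.91 ± 0.620, SD, n = 6). It was the 1 gene of the 6 whose genotypes did not overlap over the 12 libraries, and batch 4 was not low. The share of all rows without overlap, over all libraries or within batches, was not counted. As the genes were selected on this difference, nothing is read from a missing overlap. Its exons share 329 bases (3.5% of their length) with *Dexi* on the opposite strand, and the counts were made without strand, so that reads of both genes cannot be told apart there.

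**Figure D1:**
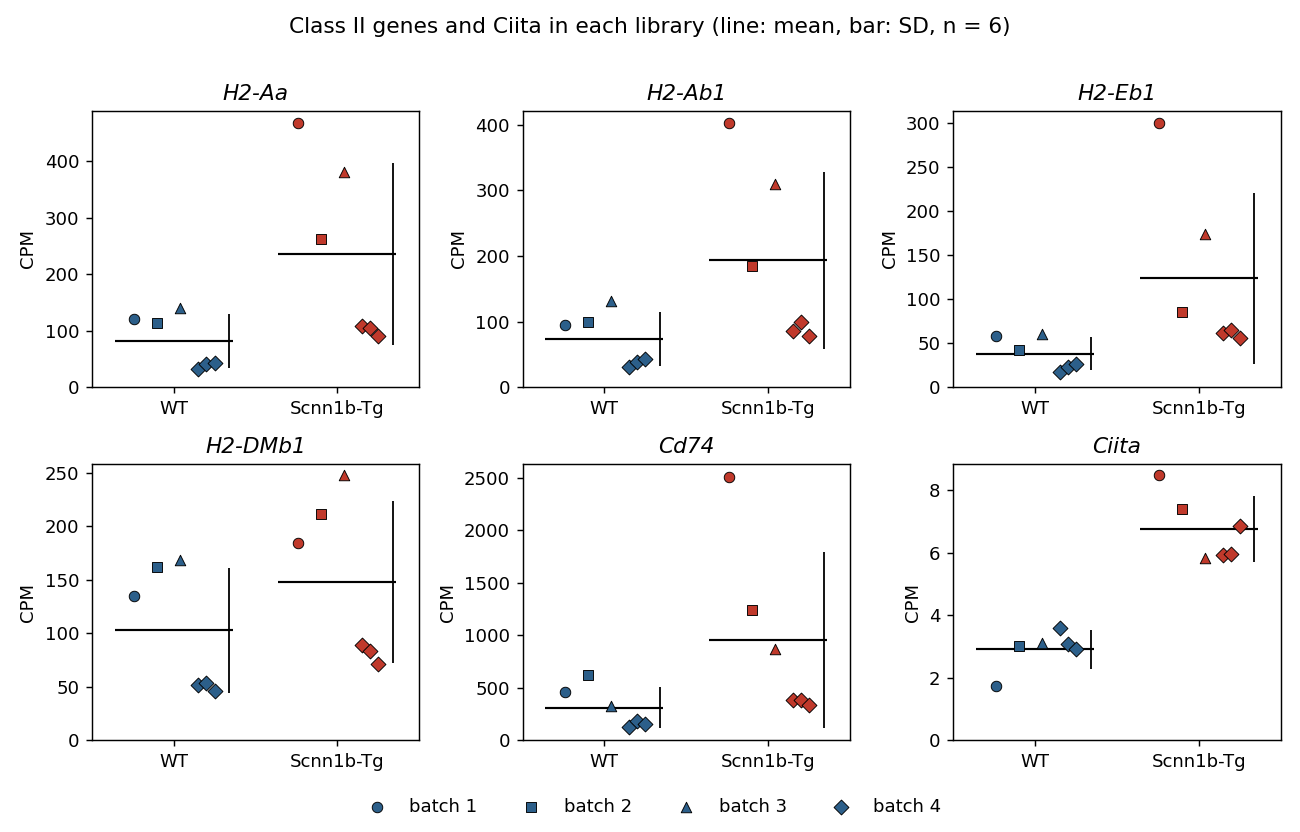
Expression of each gene in CPM (vertical axis from 0) for 6 WT and 6 *Scnn1b*-Tg libraries; points are libraries, their shape gives the batch, horizontal lines are means and vertical bars 1 SD. Batch 4 is low in both genotypes for every gene except *Ciita*, for which the lowest *Scnn1b*-Tg library (5.84 CPM) lies above the highest WT library (3.59 CPM).

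Levels of different genes were compared per kilobase of exon length. In WT AMs *Cd74* stood first, with 185 ± 117 CPM per kilobase (SD, n = 6), followed by *H2-DMb1* (61.1 ± 34.8), *H2-Ab1* (28.3 ± 16.0), *H2-Aa* (21.5 ± 12.7), *H2-Eb1* (19.5 ± 9.65) and *Ciita* (0.306 ± 0.0651). In *Scnn1b*-Tg AMs the order was *Cd74* (569 ± 501), *H2-DMb1* (87.9 ± 45.1), *H2-Ab1* (75.2 ± 52.7), *H2-Eb1* (63.6 ± 49.9), *H2-Aa* (62.1 ± 42.5) and *Ciita* (0.708 ± 0.111). The means of the 3 chains differed by less than the spread between libraries in both genotypes, as did *H2-DMb1* from the chains in *Scnn1b*-Tg AMs, but much of this spread lies between batches and is shared by the genes. Exon length counts every annotated exon, so that a gene with rarely used exons appears lower.

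Ratios within a library remove its overall class II level. Per length, *H2-DMb1* stood at 1.64 to 2.59 times *H2-Ab1* in WT libraries and at 0.697 to 1.74 times in *Scnn1b*-Tg libraries. The ratio was thus lower in *Scnn1b*-Tg libraries apart from an overlap of library 2 (1.74) with WT library 6 (1.64). The alpha to beta ratio of I-A, *H2-Aa* over *H2-Ab1*, was 0.687 to 0.869 in WT and 0.718 to 0.959 in *Scnn1b*-Tg libraries, which overlap. *H2-Eb1* stood at 0.569 to 0.821 times *H2-Ab1* in WT and 0.610 to 0.984 times in *Scnn1b*-Tg libraries. Both chains were thus below *H2-Ab1* in each of the 12 libraries. *Cd74* was 3.81 to 9.53 times *H2-Ab1* in WT and 4.27 to 10.3 times in *Scnn1b*-Tg libraries, lowest in batch 3 in both genotypes.

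With batch in the model, the log2 fold changes of *Scnn1b*-Tg against WT were 1.46 (standard error 0.11) for *H2-Aa*, 1.32 (0.15) for *H2-Ab1*, 1.54 (0.17) for *H2-Eb1*, 1.45 (0.18) for *Cd74*, 0.58 (0.08) for *H2-DMb1* and 1.22 (0.22) for *Ciita*. All 6 were among the rows called higher, which were 50 of 16972 or 0.295% of all rows tested. The genes were selected on this contrast, and nothing is read from that count. Their median log2 fold change was 1.38, against 0.0116 over all rows. *Ciita* lay nearest to the limit of the call: it was called with all 12 libraries but in 0 of 12 refits with a single library removed, whereas the other 5 genes were called in 12 of 12. It was not called with the numbers of batch 4 taken as pairs either, and without batch in the model 0 of the 6 genes were called. The log2 fold changes stayed of like size, at 1.22 for *Ciita* with pairs and from 0.523 for *H2-DMb1* to 1.70 for *H2-Eb1* without batch.

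Fold changes within batches were largest in batch 1 for *H2-Aa*, *H2-Ab1*, *H2-Eb1*, *Cd74* and *Ciita*. *Cd74* was 5.47 times as high in the *Scnn1b*-Tg as in the WT library of batch 1, 2.02 times in batch 2, 2.65 times in batch 3 and 2.43 times between the means of batch 4. *Ciita*, the coactivator, gave ratios of 4.89, 2.46, 1.87 and 1.95 in the same order. *H2-DMb1* varied least, between 1.30 in batch 2 and 1.61 in batch 4. Without *Scnn1b*-Tg library 1, the library with the highest dendritic cell marker sum, the log2 fold changes were 1.36 for *H2-Aa*, 1.17 for *H2-Ab1*, 1.38 for *H2-Eb1*, 1.25 for *Cd74*, 0.60 for *H2-DMb1* and 1.02 for *Ciita*. The number of rows called was then 22 in place of 60. The marker sum remained higher in *Scnn1b*-Tg libraries of batches 2, 3 and 4, so that leaving out library 1 does not remove that difference.

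Whether the genotype difference itself depended on the batch was examined with an added coefficient. Selection on a genotype difference with batch as a covariate favours genes with like differences in all batches, so that nothing is read from a missing call here. None of the 6 genes was called in edgeR's quasi-likelihood test, in which 19 of 16972 rows (0.112%) were called and 1130 had an unadjusted p-value under 0.05. DESeq2 called 225 rows and limma-voom 16, with 0 of the 6 genes in either. The log2 fold change in batch 4 minus that in batches 1 to 3 was −0.53 (standard error 0.42) for *Ciita*, −0.34 (0.35) for *Cd74* and 0.23 (0.15) for *H2-DMb1*, and for the chains it lay between −0.17 and −0.15. Adjusted p-values of the 6 genes (edgeR, Benjamini-Hochberg) ranged from 0.816 to 0.992. Differences of the size of these standard errors could not be detected here. Without *Scnn1b*-Tg library 1, the estimates turned positive for *H2-Aa* (0.0776), *H2-Ab1* (0.184), *H2-Eb1* (0.218) and *Cd74* (0.0912). That of *Ciita* was then −0.117. Without WT library 1 the signs were the same. Either removal leaves batch 1 without a genotype comparison, so that this is no further check.

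The 5 class II genes were lower in batch 4 than in batches 1 to 3, and *Ciita* was not called. In batch 4 against batches 1 to 3, 5 of the 6 genes were lower, in a comparison in which 5244 of 16972 rows (30.9%) were called lower and 4818 (28.4%) higher. The log2 difference was −1.77 (standard error 0.11, adjusted p = 4.65e-07) for *H2-Aa*, −1.64 (0.15, adjusted p = 6.35e-06) for *H2-Ab1* and −1.38 (0.17, adjusted p = 4.68e-05) for *H2-Eb1* (edgeR, Benjamini-Hochberg). For *Cd74* it was −1.77 (0.18, adjusted p = 1.17e-05) and for *H2-DMb1* −1.50 (0.08, adjusted p = 1.85e-07) in the same edgeR test. *Ciita* had a difference of 0.04 (standard error 0.22, adjusted p = 0.919, edgeR). The median over all rows was −0.113. TMM factors were 0.809 to 0.871 in batches 1 to 3 and 1.14 to 1.22 in batch 4. The mice, sorting, flow cells and a possible difference in library protocol cannot be told apart between batch 4 and the others.

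In WT AMs, *H2-Aa* had 125 ± 13.5 CPM (SD, n = 3) in batches 1 to 3 and 38.6 ± 5.68 CPM (SD, n = 3) in batch 4, while *Ciita* had 2.62 ± 0.769 and 3.20 ± 0.346 CPM. In *Scnn1b*-Tg AMs, *H2-Aa* had 371 ± 103 and 101 ± 9.47 CPM and *Ciita* 7.25 ± 1.34 and 6.25 ± 0.515 CPM. The mean log2 CPM of the 5 class II genes minus that of *Ciita* was 5.10 to 6.23 in batches 1 to 3 and 3.48 to 4.28 in batch 4 (n = 6 libraries each). Relative to *Ciita*, class II RNA was thus lower in each library of batch 4 than in any library of batches 1 to 3, a difference that was not tested. Of the variance in log2 CPM, 58.8% lay between batches for *H2-Aa*, 86.1% for *H2-DMb1* and 1.82% for *Ciita*, against a median of 67% over all rows.

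The relation of the class II genes to *Ciita* was then examined within batch and genotype. Selection also favours genes that vary little there. In edgeR's quasi-likelihood test of the slope on log2 CPM of *Ciita*, 0 of 16971 rows (0% rising) were called, with 1424 at an unadjusted p-value under 0.05, and DESeq2 called 422 and limma-voom 1, with 0 of the 5 class II genes in any of them. The slope was 0.67 (standard error 0.30, adjusted p = 0.593, edgeR) for *Cd74*, 0.46 (0.27) for *H2-Ab1*, 0.45 (0.32) for *H2-Eb1*, 0.25 (0.21) for *H2-Aa* and −0.16 (0.16) for *H2-DMb1*. These slopes rest on batch 1. Without *Scnn1b*-Tg library 1 they were −1.07 for *Cd74*, −1.14 for *H2-Ab1*, −1.45 for *H2-Eb1*, −0.98 for *H2-Aa* and −0.413 for *H2-DMb1*, and without WT library 1 −1.07, −1.14, −1.44, −0.98 and −0.412. Either removal takes batch 1 out of the slope, so that the like values are no further check. With *Ciita* as the tested gene on the mean of *H2-Aa*, *H2-Ab1*, *H2-Eb1* and *Cd74*, its slope was 0.52 (standard error 0.51, adjusted p = 1, edgeR).

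**Figure D2:**
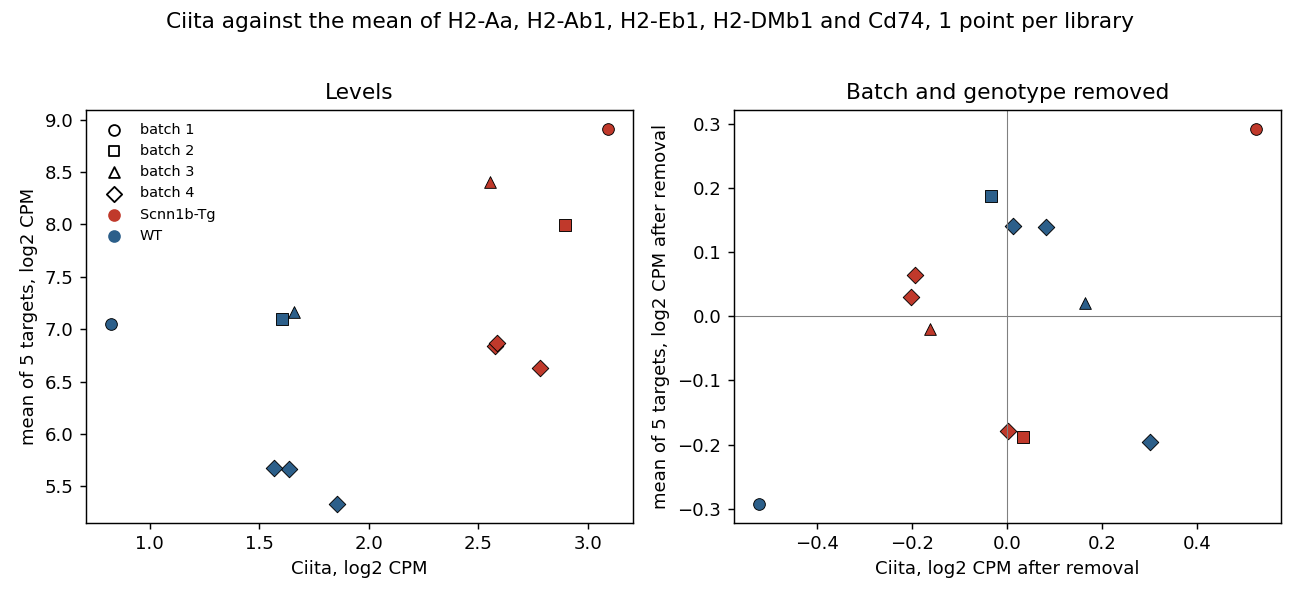
*Ciita* (horizontal axis, log2 CPM) against the mean log2 CPM of the 5 class II genes (vertical axis), 1 point per library, as levels (left) and after removal of batch and genotype (right); color gives genotype and shape the batch. On the left, libraries of batch 4 lie lower at like *Ciita* levels, and on the right, batch 1 lies farthest from 0 (0.524 and −0.524 for *Ciita*).

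With batch and genotype removed, Pearson's r over the 12 libraries was 0.90 to 0.981 between *H2-Aa*, *H2-Ab1*, *H2-Eb1* and *Cd74*, and −0.085 to 0.006 between each of these and *H2-DMb1*. The points share their batches: in batches 1 to 3 the values of both libraries mirror each other, so that fewer than 12 values are independent. *Ciita* had r between 0.367 and 0.599 with the same 4 genes and −0.406 with *H2-DMb1*, which lie within the bulk of all other rows, of which 5% had r with *Ciita* below −0.679 and 5% above 0.722. Leaving out batch 1, a setting chosen after seeing the values, kept r among the 4 genes at 0.742 to 0.960 (n = 10 libraries), but r of *Ciita* with them then lay between −0.948 and −0.816. The 3 chains and the invariant chain thus varied together with and without batch 1, and the sign of their relation to *Ciita* depended on batch 1. Without batch 1, r of *H2-DMb1* was 0.166 to 0.438 with these 4 genes and −0.431 with *Ciita*. Over all other rows, r with the mean of the 5 genes had a median of −0.0174, with 5% of rows below −0.608 and 5% above 0.623. Without batch 1, these limits were −0.655 and 0.602, and for r with *Ciita* −0.630 and 0.667, and its r with the 4 genes lay below the lower limit.

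Among other named rows, those most like the mean of the 5 class II genes on this measure were *Wdr11* (r = 0.911), *Grn* (0.894), *Gm9396* (0.862), *Csf1r* (0.853) and *Marcks* (0.846), over 12 libraries. Those most like *Ciita* were *Chil4* (0.961), *Numb* (0.954), *Ptafr* (0.941), *Gpr137b-ps* (0.934) and *Itgb2* (0.933). Rows without a name ranked among them, and *Wdr11* stood at rank 7 of all rows.

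Other genes of the pathway were counted in fixed lists. Of 6 endosomal processing genes, 4 had a named row and 1 was called, higher in *Scnn1b*-Tg AMs, against 0.295% of all rows tested. Named rows were taken from genes with small p-values in this comparison, so that nothing is read from counts of called genes in these lists. The gene called was *Lgmn*, an endosomal protease, with 257 to 383 CPM in *Scnn1b*-Tg and 198 to 240 CPM in WT AMs. *Ctsl*, *Ctsb* and *Ctsd*, cathepsins of the same compartments, had log2 fold changes of 0.21, 0.26 and 0.30. The list's median was 0.277. Of 7 promoter complex factors, *Rfxank* had a named row, at 20.1 to 31.2 CPM in *Scnn1b*-Tg and 14.4 to 24.3 CPM in WT AMs. The other class II chains and chaperones (0 of 5), the regulators upstream of *Ciita* (0 of 15) and the genes of class II surface turnover (0 of 5) had no named row and were not analysed here.

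Class I presentation had 3 of 14 genes with a named row and 0 called. Log2 fold changes were 0.17 (standard error 0.08) for *B2m*, the light chain of class I, 0.56 (0.20) for *H2-T10* and 3.36 (1.07) for *H2-M2*, which had at most 7.69 CPM in a library. Costimulation had 3 of 6 and 0 called, with *Cd86* at 3.51 to 11.9 CPM in *Scnn1b*-Tg and 7.97 to 13.3 CPM in WT AMs (log2 fold change −0.62). *Cd274*, the most abundant of the 3, was at 117 to 282 and 99.8 to 225 CPM (0.21), and *Cd40* (−4.82) had 1.72 CPM in *Scnn1b*-Tg library 1, between 0 and 0.0569 CPM in *Scnn1b*-Tg libraries 2 to 6 and 0 to 0.921 CPM in WT AMs. Interferon response had 2 of 12 and 0 called, with log2 fold changes of −0.69 for *Oasl2* and −1.62 for *Rsad2*. Their medians were 0.56, −0.616 and −1.15. Of the 4 AM markers with a named row, 2 estimates were higher and 2 lower, with a median of 0.0483. *Fabp5* was called, with a log2 fold change of 0.59, and *Chil3* (0.29), *Ear1* (−0.19) and *Siglecf* (−0.31) were not. *Siglecf* passed the limit on the adjusted p-value (0.0895, edgeR) but not that on the fold change. *Chil3* and *Ear1* passed neither.

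Promoters of class II genes carry the X and Y boxes, bound by the factors on which CIITA acts. Of the member promoters examined, those of *H2-Aa* and *H2-Eb1* are shown, since an annotated exon lies over the window of *H2-DMb1*. The letters GNAACT (X core) and GATTGG (Y core), chosen after reading the sequences, were searched on both strands in the 250 bases before each gene's start in RefSeq (GRCm38.p6). In *H2-Aa*, *H2-Eb1* and *H2-DMb1* an X core was followed on the same strand by a Y core, with 26, 25 and 26 bases between them. Among all 32536 such windows, 37.2% held an X core, 14.6% a Y core and 0.578% an X core followed within 40 bases by a Y core. Of the other class II genes in the table, *H2-Eb2* held such a pair, and *H2-Oa*, *H2-DMa*, *H2-DMb2* and *H2-Ob* did not. *H2-Ab1* and *Ciita* were not in the promoter table used here, and *Cd74* was not examined. Since the letters were chosen from these sequences, the matches are a description of letters only, and not of binding. The 110 bases before the start are chr17:34287824-34287933 on the minus strand for *H2-Aa* and chr17:34305757-34305866 on the plus strand for *H2-Eb1*, both upstream of the annotated gene, with the X core and Y core of the pair in capitals (*H2-Eb1* holds another Y core on the other strand, left in lower case):
H2-Aa: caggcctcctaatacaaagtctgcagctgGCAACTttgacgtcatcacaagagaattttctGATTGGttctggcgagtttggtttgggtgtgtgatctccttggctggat
H2-Eb1: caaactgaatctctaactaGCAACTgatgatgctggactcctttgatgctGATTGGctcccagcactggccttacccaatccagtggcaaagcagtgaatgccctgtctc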

How the data were processed

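AMs were sorted from lungs of 12 mice and RNAseq libraries were made by the authors. Per the labels and the study's methods, the deposited counts were made by the authors with HISAT2 on mm10, without strand, and StringTie with its prepDE script, which converts transcript coverage to whole numbers; they are not normalized, and a total is not a number of reads. The table has no gene names. Each gene of a copy of the study's expression table was paired with the row whose weighted sum of counts gave its mean (relative difference under 1e-10, next closest row 2.9e-07 or more), and refitting the weights on other genes led to the same row for 999 of 999 genes. Only this identity was taken from that table. Of the 1999 genes, 1977 had a symbol. Positions come from GENCODE M21 (mm10).

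Counts were scaled with TMM factors, filtered with edgeR's expression filter and tested with edgeR 4.0.16 (R 4.3.3, quasi-likelihood, Benjamini-Hochberg over all rows), with batch as a covariate. Calls had an adjusted p-value under 0.1 and, between genotypes, an absolute log2 fold change above 0.5. Log2 CPM used a prior count of 2. Alternatives were DESeq2 1.42.0, limma-voom (limma 3.58.1), DESeq2 size factors, no filter, no block, 6 pairs, parts of the batches and each library left out. Batches pair libraries by the labels: after subtraction of each genotype mean, both libraries of batch 1 correlated at 0.599, of batch 2 at 0.622 and of batch 3 at 0.453, while equal numbers in batch 4 gave −0.064, 0.0014 and −0.0058. No libraries of one genotype agreed within sampling noise (30 pairs, lowest chi-square per row 62.2). The procedures were tested on simulated data. The genes named are the 6 members, the named genes of fixed lists, and the 5 named rows most like the 5 class II genes and most like *Ciita*. Members and lists were chosen with earlier results of these data known. A gene of the monocyte list is not reported here.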

Additional observations from a re-analysis of the deposited data

Results flagged for a closer look

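Libraries were examined for values far from the others of their genotype in 58 groups of 6, of which chance marks about 1 in 20. Among the members this held for *Ciita* in WT library 1 (1.74 CPM). *Scnn1b*-Tg library 1 stood apart for *Cd40* (1.72 CPM), *Chil3* (59300 CPM), *Flt3* (2.73 CPM), *Cd209a* (35.8 CPM) and *Mgl2* (47.4 CPM), and WT library 1 for *Cd209a* (2.73 CPM) and *Mgl2* (4.42 CPM). Batch 2 stood apart for *C1qb* in the *Scnn1b*-Tg (12.9 CPM) and the WT library (14.2 CPM), and WT library 2 also for *Lgmn* (240 CPM). The cause was not tested.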

How the results depend on the processing

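In the genotype comparison, 60 rows were called in edgeR, 243 in DESeq2, 97 in limma-voom, 28 with the replicate block of 6 pairs, 52 in batch 4 alone, 0 without the block and 0 in batches 1 to 3 alone. Of the 6 genes, 0 were called in the last 2 settings, 5 with 6 pairs (not *Ciita*) and 4 in batch 4 alone. Their log2 fold changes were 0.523 to 1.70 without the block, 0.462 to 1.62 in batches 1 to 3 alone and 0.689 to 1.46 in batch 4 alone, lowest for *H2-DMb1* in each. Leaving out 1 library gave 22 to 53 rows: 22 without *Scnn1b*-Tg library 1, 38 without library 2, and 23, 39, 32, 35 and 27 without WT libraries 1, 2, 4, 5 and 6. Each of these fits called 5 of the 6 genes, and log2 fold changes of the members stayed positive. Nothing is read from these calls, since the genes were selected on this contrast.

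For the batch difference in genotype effect, 19 rows became 225 in DESeq2, 11 without a filter, 6 without the block of batches and 7 with the replicate block of 6 pairs. Leaving out 1 library gave 6 (without WT library 5) to 42 (without *Scnn1b*-Tg library 6), with 34, 10 and 12 without *Scnn1b*-Tg libraries 3, 4 and 5 and 35 and 8 without WT libraries 3 and 6. The estimates of *H2-Aa* (−0.279 to 0.0778), *H2-Ab1* (−0.400 to 0.184), *H2-Eb1* (−0.449 to 0.218) and *Cd74* (−0.617 to 0.0914) turned positive without library 1 of either genotype. Both removals give in effect the same fit, without batch 1. That of *Ciita* ranged from −0.802 without *Scnn1b*-Tg library 3 to −0.117 without *Scnn1b*-Tg library 1, and that of *H2-DMb1* from 0.155 to 0.308.

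For the slope on *Ciita*, 0 rows became 422 in DESeq2 and 1 in limma-voom, and 0 to 3 when 1 library was left out, with 3 without WT library 4, 2 without WT library 6 and 1 without *Scnn1b*-Tg libraries 1, 3 or 5 or WT libraries 1 or 3. Over these fits the slopes were −0.982 to 0.413 for *H2-Aa*, −1.14 to 0.659 for *H2-Ab1*, −1.45 to 0.690 for *H2-Eb1* and −1.07 to 0.897 for *Cd74*. For *H2-DMb1* they were −0.413 to −0.106. Without the replicate block they were −0.213 for *H2-Aa*, 0.0101 for *H2-Ab1*, −0.0827 for *H2-Eb1*, 0.329 for *Cd74* and −0.381 for *H2-DMb1*. The correlations of *Ciita* with the 4 genes became −0.948 to −0.816 without batch 1. The level of *Ciita* in batch 4 had the opposite sign in limma-voom (−0.0306) and ranged from −0.107 to 0.305 with 1 library left out, negative without WT libraries 1 or 4. The 5 class II genes were called lower in batch 4 in all settings run. Leaving the block out or changing it altered no other call of the 6 genes, and the causes were not tested. *Ciita* rests on 119 to 838 counts a library, and the part of counting error in its spread was not tested.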
